A study of Mus musculus with 16 samples.

Results

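The effect of an Asxl1 transgene was examined in mice that already carry a splicing factor mutation. LSK cells, the stem and progenitor cells of bone marrow that lack lineage markers and carry c-Kit and Sca-1, of 4 mice with the genotype Asxl1Y588XTg;Srsf2P95H/+, called DM here, were set against those of 4 mice with the genotype Srsf2P95H/+. These are 8 of the 16 libraries of the study, chosen by their genotype labels. The Srsf2P95H/+ allele is thus common to both groups, and the transgene is what separates them. The other 8 libraries, 4 wild type (WT) and 4 Asxl1Y588XTg (Asxl1Tg), give the transgene effect on the normal background and share no library with this comparison. All mice were C57BL/6, and each library came from 1 mouse. The labels give no age, sex, batch or date, and neither the promoter of the transgene nor the way the Srsf2 mutation was induced is given in the sources used here. The title of the series asks about leukaemia that starts from the transgene and is worsened by the Srsf2 mutation, and this comparison asks what the transgene contributes once the Srsf2 mutation is there.

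Asxl1 is a scaffold of the Bap1 complex, which removes ubiquitin from histone H2A, and it also interacts with the Polycomb system that keeps genes silent. Truncated forms of the protein, such as the one this transgene encodes, are found in myeloid neoplasms and are widely regarded as gain-of-function products. Srsf2 is an SR protein that helps the spliceosome to select exons, and its hotspot mutations change which exon motifs it prefers. Both genes are often mutated in the same myeloid patients.

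The libraries held 92.18 to 104.8 M (megacounts) in Srsf2P95H and 113.8 to 127.6 M in DM. Every DM library was thus deeper than every Srsf2P95H library (exact permutation test, two-sided p = 0.0286, the smallest that 4 against 4 can give), and the part of depth in the results was not tested. Expression is given as CPM, counts per megacount of library after trimmed-mean (TMM) scaling. Levels of the LSK-defining genes were high in all 8 libraries, with Kit at 765 to 1211 CPM and the Sca-1 gene Ly6a at 27.8 to 54.3 CPM. Cd3e and Ly6g, markers of T cells and neutrophils, stayed at or below 0.2 CPM. Other such markers were higher, with Cd4 at 1.80 to 3.36 CPM and Itgam, on the neutrophil list, at 7.34 to 19.8 CPM. The 16 mature neutrophil genes summed to 126.2 to 228.3 CPM in Srsf2P95H and 142.3 to 184.7 in DM. Markers of 12 cell types or states, 10 to 21 genes each and the neutrophil list among them, were summed in this way. The groups overlapped in summed level for every list (exact permutation tests, smallest adjusted p = 0.717). None of these lists had a gene at 0 in all 8 libraries. B lineage genes summed to 266 to 1513 CPM in DM and 283.5 to 531 in Srsf2P95H, and eosinophil genes to 64.1 to 127 and 80.8 to 504. Xist was high in 1 DM and 2 Srsf2P95H libraries. One Srsf2P95H library, number 2, stood apart in immediate-early genes, which summed to 14850 CPM there and to 2674 to 4298 in the other 3. In bulk RNA, fewer cells of a type and less RNA per cell cannot be told apart.

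Asxl1 itself was at 209.6, 205.5, 234 and 206.5 CPM in the 4 Srsf2P95H libraries and at 217.9, 218.8, 229.8 and 236.3 CPM in DM. The groups overlapped, and the difference did not pass the test (log2 fold change 0.08, SE 0.06, adjusted p = 0.954). Srsf2 was at 224.7 ± 26.6 CPM in Srsf2P95H and 203.5 ± 22.9 in DM (SD, n = 4; adjusted p = 0.965). These counts do not separate transgene from endogenous transcripts, so they neither show the transgene nor check the labels.

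Few genes were called by edgeR, most of them higher in DM, while DESeq2 called 234 (197 higher) and limma-voom 92 (79 higher). Of 22749 genes tested with edgeR, 56 passed at an adjusted p under 0.05 (0.246% of those tested), 49 of them higher in DM (0.215%) and 7 lower (0.0308%). Most rises were large. In all 38 of 49 reached 2-fold and 13 reached 4-fold, with a range of 1.37-fold to 13.0-fold. Many started from a low level. In Srsf2P95H the median of the 49 genes was 1.73 CPM, against 3.28 CPM over all genes tested, and 19 of them lay under 1 CPM. In each of the 56 genes all 4 DM libraries lay on one side of all 4 Srsf2P95H libraries, as they did in 4.28% of all genes tested. At an unadjusted p under 0.05 there were 894 higher genes (3.93%) and 581 lower ones (2.55%). The median standard error of a log2 fold change was 0.23 over all genes and 0.10 over the 9452 genes above 10 CPM, so changes near those sizes were not detectable.

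**Figure D1:**
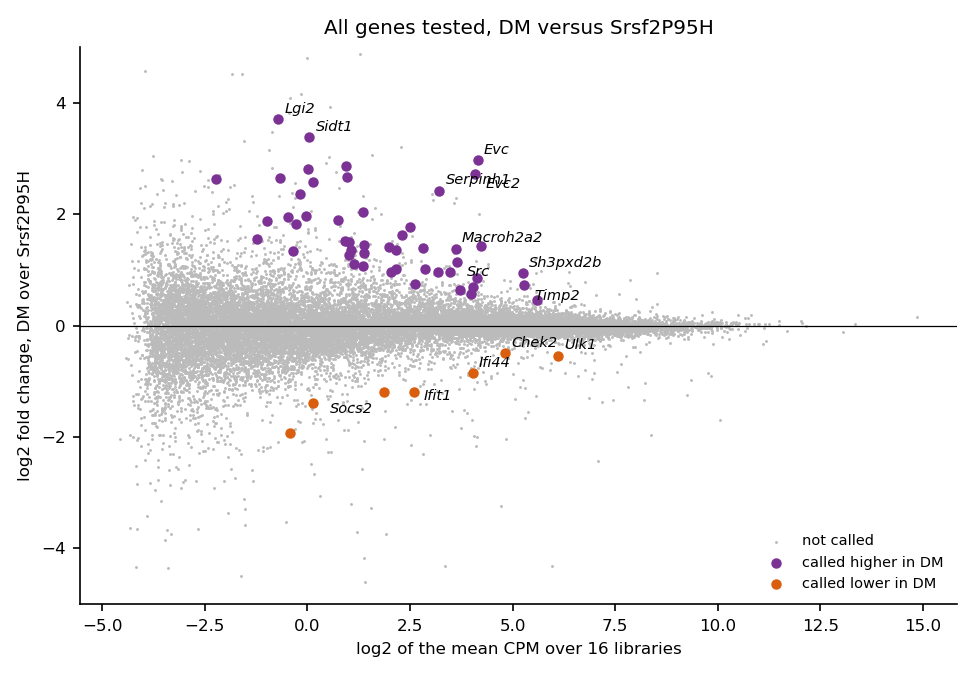
Log2 fold change of DM over Srsf2P95H (vertical axis) against log2 of the mean CPM over 16 libraries (horizontal axis), 1 point per gene tested. The 49 genes called higher (purple) lie mostly at low to middle expression, the 7 called lower are orange, and 16 genes beyond a log2 fold change of 5 in either direction are not drawn.

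The number of calls changed with the library that was left out. It fell to 24 without Srsf2P95H 1, 34 without Srsf2P95H 2, 20 without Srsf2P95H 4, 23 without DM 2 and 24 without DM 3, and stayed at 38 to 63 without any other library. All 56 genes kept their sign in each of 28 alternative runs, of which the stricter filter tested 52. The groups did not overlap in any of the 56, so leaving out 1 library could hardly reverse a sign. The kept signs are thus no further support. The 14 genes that passed in every run, named after their values were seen, were Serpinh1, Fkbp10, P3h4, Evc, Evc2, Anks6, Macroh2a2, Src, Kirrel, Ntn3, Sidt1, Susd4, BC067074 and 1700003E16Rik. Among the runs, 1 required an absolute log2 fold change of at least 1, which smaller effects fail by construction. Chek2 and Timp2 passed in 27 of the 28 runs and failed only there.

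The strongest rises with a solid level of expression were Evc and Evc2, neighbouring genes on chromosome 5. Their products form a complex at the base of the primary cilium, the sensory antenna of the cell, where it binds Smoothened and passes the Hedgehog signal on. Evc (chromosome 5 37289098–37336894, GRCm38, minus strand) was at 5.12, 2.39, 3.50 and 3.83 CPM in the Srsf2P95H libraries. In the DM libraries it was at 32.2, 29.9, 30.7 and 23.3 CPM. The lowest DM value was several times the highest Srsf2P95H value, and the fold was 7.82 (log2 fold change 2.97, SE 0.28, edgeR adjusted p = 1.77e-04). Evc2 (chromosome 5 37338499–37425055, plus strand) was at 4.95, 3.54, 3.72 and 3.76 CPM in Srsf2P95H and at 30.1, 27.9, 27.5 and 20.3 CPM in DM. It rose 6.62-fold (adjusted p = 0.00200), and DM 4 was the lowest DM library for both genes. The bodies of the pair lie 1.604 kb apart and are read in opposite directions, so their start regions face each other. The 250 bases before each start, from RefSeq (GRCm38.p6), are shown because the genes moved together. They cover chr5:37336882-37337131 on the minus strand for Evc and chr5:37338228-37338477 on the plus strand for Evc2, written 5′ to 3′ along each gene, with GC boxes (GGGCGG, searched on both strands) in capitals.
Evc: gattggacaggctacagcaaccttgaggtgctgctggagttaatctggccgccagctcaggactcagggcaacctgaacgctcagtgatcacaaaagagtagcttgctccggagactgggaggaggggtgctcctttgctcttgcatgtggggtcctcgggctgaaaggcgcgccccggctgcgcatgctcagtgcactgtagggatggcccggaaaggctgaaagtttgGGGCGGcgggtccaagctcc
Evc2: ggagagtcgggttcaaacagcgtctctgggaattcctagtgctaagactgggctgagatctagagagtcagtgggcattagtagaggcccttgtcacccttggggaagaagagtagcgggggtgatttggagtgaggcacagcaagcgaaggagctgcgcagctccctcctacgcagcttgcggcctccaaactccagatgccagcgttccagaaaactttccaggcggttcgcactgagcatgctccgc
The Evc window holds 1 GC box and the Evc2 window none. Each holds 11 CpG dinucleotides, against a median of 14 over the 12807 tested genes with a window.

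Dzip1l, a protein of the ciliary base that is mutated in a form of polycystic kidney disease, followed the pair. It lies at chromosome 9 99629496–99669256 and was at 0.51, 0.47, 0.78 and 0.33 CPM in Srsf2P95H. The DM libraries were at 4.16, 4.23, 3.82 and 3.12 CPM, a rise of 7.31-fold (SE 0.47 on the log2 scale, adjusted p = 0.0149). The call was lost without Srsf2P95H 1, 2 or 4 (adjusted p = 0.0603 to 0.0754). Of 32 tested genes on a list for the primary cilium and Hedgehog signalling, these 3 were called higher and none lower. Of all genes tested, 0.215% were called higher and 0.0308% lower. The median log2 fold change of the list was 0.08, against -0.01 over all genes. Another 6 members were higher at an unadjusted p under 0.05 (9 of 32 in all, against 3.93% of all genes tested). In 8 members the groups did not overlap, all higher, against 2.86% of all genes in that direction. This list, like the others here, was chosen with earlier results of these data known. Its shares beside those of all genes are thus not independent support. Gli2, a transcription factor at the end of the pathway, was at 0.077 CPM in Srsf2P95H and 0.443 in DM (log2 fold change 2.49, adjusted p = 0.0535). Smo, the signal transducer itself, was at 104.2 ± 7.21 and 120.2 ± 6.09 CPM (adjusted p = 0.560), and the ciliary-tip kinesin gene Kif7 at 4.58 ± 0.542 and 6.51 ± 0.181 CPM (adjusted p = 0.155). Outside the list, and named after their values were seen, Rab34, Anks6 and Kif19a also rose, by 2.71-fold, 2.66-fold and 2.48-fold. Rab34 is a small GTPase of early cilium formation, Anks6 a protein of the proximal cilium and Kif19a a kinesin that limits cilium length. The Rab34 call was lost without Srsf2P95H 2, 3 or 4 or DM 2 or 3 (adjusted p = 0.0632 to 0.0793), and that of Kif19a without Srsf2P95H 4.

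Serpinh1 had the smallest p of the comparison. It encodes the endoplasmic reticulum chaperone of procollagen, also known as Hsp47, and lies at chromosome 7 99345376–99353239 on the minus strand. The Srsf2P95H libraries were at 2.83, 2.82, 2.21 and 3.47 CPM and the DM libraries at 13.0, 15.4, 20.4 and 11.8 CPM. The groups were far apart, with a rise of 5.36-fold (log2 fold change 2.42, SE 0.20, adjusted p = 1.84e-05). Its start region, chr7:99353240-99353489 on the minus strand, is shown beside those of the ciliary pair, with its GC box in capitals.
Serpinh1: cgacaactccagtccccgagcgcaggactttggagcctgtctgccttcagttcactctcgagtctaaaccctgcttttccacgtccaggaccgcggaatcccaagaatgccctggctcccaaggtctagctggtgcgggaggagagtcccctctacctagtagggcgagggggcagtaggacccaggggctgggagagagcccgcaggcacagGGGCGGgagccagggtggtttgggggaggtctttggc
A GC box was found in 58.3% of the 36 called-higher genes with a window and in 54.1% of all tested genes with one.

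A second pair of neighbours with roles in collagen also rose. Fkbp10, a prolyl isomerase that helps collagen to fold (chromosome 11 100415697–100424824, plus strand), was at 0.79, 1.13, 1.02 and 0.74 CPM in Srsf2P95H. In DM it was at 4.36, 2.32, 4.88 and 3.64 CPM, 4.13-fold higher (adjusted p = 0.00324). P3h4, named after its values were seen and part of the endoplasmic reticulum complex that hydroxylates collagen lysines (chromosome 11 100408456–100414836, minus strand), was at 0.96 to 1.24 CPM in Srsf2P95H and at 2.19 to 3.30 in DM. It rose 2.57-fold (adjusted p = 0.00734), and the gene bodies lie 0.86 kb apart in opposite orientation. DM 2 was the lowest DM library for both. Of 26 tested genes on a list for collagen folding and matrix, Serpinh1 alone was called (against 0.246% of all genes tested). The list held neither Fkbp10 nor P3h4, and its median log2 fold change was 0.07. Bmp1, the protease that trims procollagen ends, was at 15.95 ± 1.52 CPM in Srsf2P95H and 23.1 ± 2.19 in DM without overlap (adjusted p = 0.0608). Pxdn, a peroxidase that cross-links collagen IV, was at 0.383 ± 0.196 and 2.61 ± 1.34 CPM (adjusted p = 0.143).

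The 8 most abundant called genes included Lama5, Timp2, Sh3pxd2b, Sh3pxd2a and Inppl1, all higher in DM. Lama5, a laminin chain of basement membranes (chromosome 2 180176373–180225859), was at 9.87, 7.85, 9.63 and 11.8 CPM in Srsf2P95H and at 17.9, 31.6, 28.8 and 27.1 CPM in DM. It rose 2.69-fold (adjusted p = 0.0272), with DM 1 well below the other 3 DM libraries. Timp2, an inhibitor of matrix metalloproteinases (chromosome 11 118301069–118355740), was at 26.8, 31.2, 31.8 and 23.3 CPM in Srsf2P95H. It was at 41.6, 46.2, 53.3 and 45.4 CPM in DM, a rise of 1.65-fold (adjusted p = 0.00734). Src, the membrane-bound tyrosine kinase of adhesion sites (chromosome 2 157418444–157471862), was named after its values were seen. It went from 6.87, 7.40, 7.70 and 6.02 CPM to 13.6, 15.6, 17.6 and 15.3 CPM, a rise of 2.22-fold (adjusted p = 2.97e-04). Both scaffold genes known as Src substrates at podosomes rose too, Sh3pxd2b by 1.91-fold (27.99 ± 5.46 to 53.5 ± 3.94 CPM, adjusted p = 0.0126) and Sh3pxd2a by 1.37-fold (38.9 ± 1.49 to 53.2 ± 4.59 CPM, adjusted p = 0.0246). Inppl1, the lipid phosphatase Ship2, rose by 1.81-fold (11.9 ± 1.87 to 21.6 ± 3.16 CPM, adjusted p = 0.0149). In all of these genes the lowest DM library lay above the highest Srsf2P95H library.

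Genes at lower levels completed the largest rises. Kirrel, an immunoglobulin-family adhesion molecule, rose by 3.70-fold (0.662 ± 0.180 to 2.46 ± 0.846 CPM), and DM 1 was its highest library at 3.71 CPM. Ntn3, a netrin, rose by 2.82-fold (0.951 ± 0.166 to 2.68 ± 0.520 CPM). Shisa7, an accessory subunit of neuronal receptors, rose by 2.88-fold (0.789 ± 0.273 to 2.27 ± 0.642 CPM), and Spats2 by 6.32-fold (0.329 ± 0.0973 to 2.08 ± 0.564 CPM). Cd276, the immune checkpoint ligand B7-H3, was at 0.93, 2.32, 2.01 and 1.67 CPM in Srsf2P95H and at 4.06, 5.36, 5.53 and 6.39 CPM in DM, 3.08-fold higher (adjusted p = 0.0397). Macroh2a2, a histone H2A variant linked to stable silencing (chromosome 10 61738640–61784604), was named after its values were seen and had the second smallest p. It was at 6.81, 6.61, 7.58 and 7.21 CPM in Srsf2P95H and at 16.4, 20.9, 16.8 and 19.4 CPM in DM, a rise of 2.60-fold (adjusted p = 6.49e-05). The steepest rises of all, also named after their values were seen, were those of Lgi2 (13.0-fold) and Sidt1 (10.4-fold), from 0.0791 and 0.186 CPM. At such levels a small number of counts sets the fold, and the Lgi2 call was lost without each of the Srsf2P95H libraries and DM 1, 2 or 3.

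**Figure D2:**
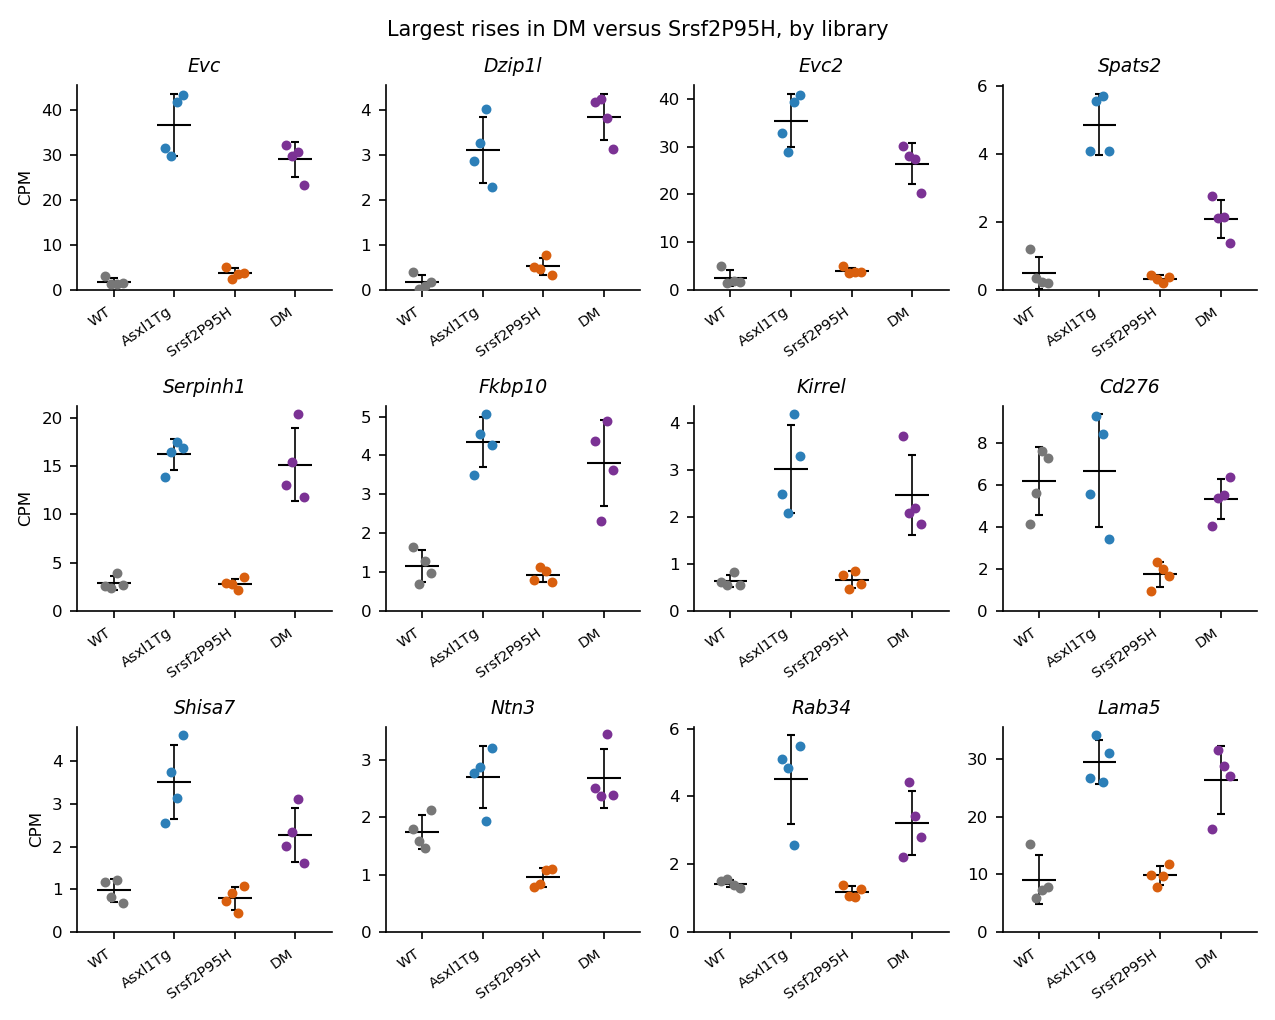
CPM (vertical axes, each from 0) in each of the 4 libraries of the 4 groups for the 12 largest rises at 2 CPM or more, with the mean and SD as bars. All 4 DM points lie above all 4 Srsf2P95H points in each panel, and for Cd276 the WT and Asxl1Tg points overlap near the level of DM.

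Some of these calls did not hold in every run that left out 1 library. Without 1 or another of the 16, the calls of Lama5 (7 libraries, adjusted p = 0.0613 to 0.104), Sh3pxd2a (5, 0.0571 to 0.104) and Inppl1 (4, 0.0507 to 0.0645) were lost. The same held for Sh3pxd2b (without Srsf2P95H 4, 0.0645), Spats2 (7, 0.0565 to 0.0901), Shisa7 (11, 0.0510 to 0.157) and Cd276 (8, 0.0502 to 0.146). Srsf2P95H 4 was among these libraries for all 7 genes, and DM 2 and DM 3 for all but Sh3pxd2b. The calls of Serpinh1, Evc, Evc2, Fkbp10, P3h4, Macroh2a2, Src, Timp2, Kirrel and Ntn3 held whichever library was left out.

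Only 7 genes were called lower, and 2 of the 5 largest falls were interferon-stimulated genes. Ifit1, which binds foreign RNA (chromosome 19 34640871–34650009), was at 6.61, 12.5, 5.87 and 10.4 CPM in Srsf2P95H and at 2.67, 4.37, 4.85 and 3.56 CPM in DM. It was 2.29-fold lower (adjusted p = 0.0386), and Srsf2P95H 2 and 4 were the highest libraries. Ifi44, another gene of the interferon response (chromosome 3 151730922–151749960), was at 20.8, 30.4, 21.8 and 26.1 CPM in Srsf2P95H and at 11.7, 13.5, 17.4 and 12.2 CPM in DM, 1.81-fold lower (adjusted p = 0.0426). Of 29 tested genes on an interferon-stimulated list, edgeR called these 2 lower and none higher, while DESeq2 called 11 and limma-voom 4. Of all genes tested, edgeR called 0.0308% lower. No member was called without any 1 of 7 of the 16 libraries (Srsf2P95H 2 or 4, DM 1, 2 or 4, WT 3 or Asxl1Tg 4). The log2 fold change was below 0 in 27 of the 29, with a median of -0.55, and 17 were lower at an unadjusted p under 0.05 (background 2.55%) and none higher. Groups did not overlap in 7 members, all lower, against 1.42% of all genes tested in that direction. Among the members not called, Oasl1, a sensor-family gene, was at 10.2 ± 2.76 CPM in Srsf2P95H and 4.93 ± 1.32 in DM (adjusted p = 0.0608). Ifit3, a partner of Ifit1, was at 1.80 ± 0.817 and 0.604 ± 0.238 CPM (adjusted p = 0.0858).

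The interferon difference was smaller without the library that stood apart in immediate-early genes. Without Srsf2P95H 2 the median of these genes was -0.33, none was called, and 14 were lower at an unadjusted p. Over all 28 alternative runs the median stayed between -0.65 and -0.33, and 13 to 20 members were lower at an unadjusted p. The immediate-early list showed a stronger dependence. All 21 of its members had a log2 fold change below 0, with a median of -1.33, and the median was -0.28 without Srsf2P95H 2. With edgeR 4 members were lower at an unadjusted p under 0.05 and none was called, and with DESeq2 11 were lower at an unadjusted p and 1 was called. The start region of Ifit1 is shown because it carries the motif of this response. The stretch chr19:34640744-34640870, plus strand, lies before the annotated first exon, and both matches to the interferon response element (GAAA, any 2 bases, GAAA, on either strand) are in capitals.
Ifit1: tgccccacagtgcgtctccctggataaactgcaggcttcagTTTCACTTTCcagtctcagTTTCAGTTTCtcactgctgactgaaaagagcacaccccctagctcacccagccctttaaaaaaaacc
The element was found within 250 bases before the start in 10 of the 20 tested list members with a RefSeq window (50%), against 2.71% of all tested genes with one. Ifi44 had none in that window.

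The 5 falls outside the interferon list were Chek2, Ulk1, Socs2 and a pair of noncoding RNAs. Chek2, the checkpoint kinase of the DNA damage response (chromosome 5 110839979–110874145), varied little between libraries. It was at 35.1, 35.6, 36.1 and 35.1 CPM in Srsf2P95H and at 27.0, 24.5, 23.6 and 25.3 CPM in DM, 1.41-fold lower (log2 fold change -0.50, SE 0.08, adjusted p = 0.00767). It was the 1 call among 24 tested DNA repair genes (against 0.246% of all genes tested). Ulk1, the kinase that starts autophagy, lies 29.9 kb from Chek2 with 1 tested gene between them, and went from 64.2, 91.2, 84.2 and 71.3 CPM to 47.4, 49.2, 56.9 and 60.0 CPM. It was 1.46-fold lower at the edge of the threshold (adjusted p = 0.0496), and the groups were separate but close. Socs2, a feedback inhibitor of cytokine receptors (chromosome 10 95385362–95417180), was at 5.2, 4.37, 4.82 and 7.62 CPM in Srsf2P95H and at 3.12, 1.80, 2.66 and 2.06 CPM in DM, 2.28-fold lower (adjusted p = 0.0419). The other two falls were in the long noncoding RNAs B230303O12Rik (3.82-fold) and 9230105E05Rik (2.63-fold), named after their values were seen. The first call was lost without Srsf2P95H 1, 2 or 3 or DM 1, 3 or 4, and that of 9230105E05Rik without Srsf2P95H 1, 2 or 4, any DM library or WT 3. 9230105E05Rik lies within the coordinates of Hmga2, on the other strand. The strand setting of the counts is not given in the sources used here, so their reads cannot be told apart. Hmga2, a chromatin protein of fetal stem cells, was at 28.4 ± 4.29 CPM in Srsf2P95H and 14.03 ± 4.40 in DM without overlap (log2 fold change -1.02, adjusted p = 0.196). Leaving out single libraries ended the calls of Ifit1 (8 of 16 libraries, adjusted p = 0.0538 to 0.137), Ifi44 (10, 0.0502 to 0.145), Socs2 (9, 0.0554 to 0.155) and Ulk1 (13, 0.0504 to 0.163), and that of Chek2 in no case.

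**Figure D3:**
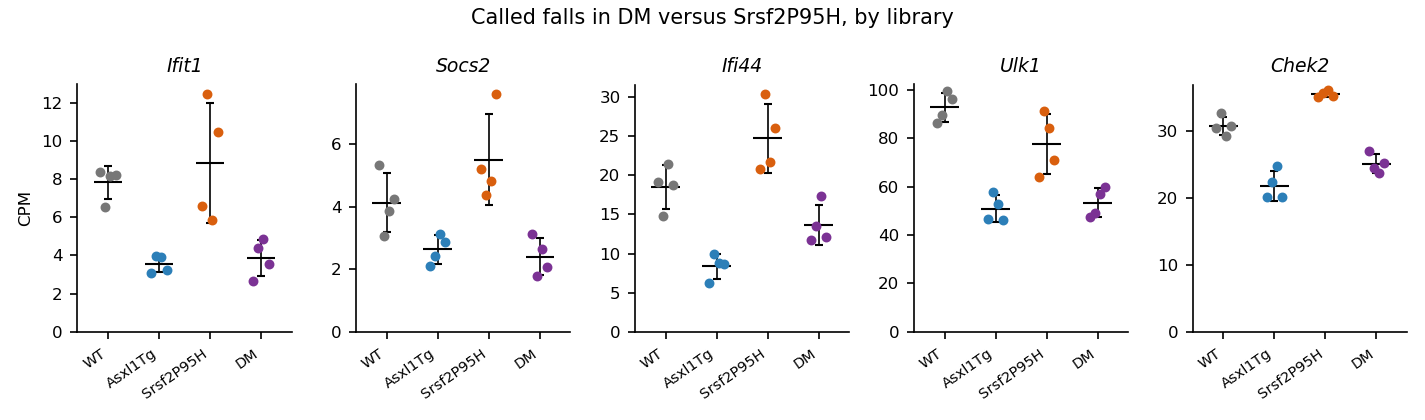
CPM (vertical axes, each from 0) in each of the 4 libraries of the 4 groups for the 5 largest falls at 2 CPM or more, with the mean and SD as bars. Chek2 spans only 35.1 to 36.1 CPM in Srsf2P95H, and in each panel all 4 DM points lie below all 4 Srsf2P95H points.

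The same genes were then read in the mice without the Srsf2 mutation, which share no library with this comparison. In Asxl1Tg versus WT 428 genes were called (1.88% of those tested), 255 higher (1.12%) and 173 lower (0.76%). That number was 1872 with DESeq2 and 1091 with limma-voom, and it moved by over 1.5 times without any 1 of the 8 WT and Asxl1Tg libraries, from 121 without Asxl1Tg 4 to 2330 without Asxl1Tg 2. All 56 genes had the same sign there, 49 of 49 higher and 7 of 7 lower, while 52.9% of all genes tested had the same sign in both. Of the 56, 38 were called in both, which is 67.9% of the DM calls and 8.88% of the Asxl1Tg calls, a share that moves with the number above. Groups did not overlap in 49 of the 56 there either, in the same direction (background 8.98%). They were 43 of the 49 rises (3.7%) and 6 of the 7 falls (5.28%). The 49 rises had a median log2 fold change of 1.43 in DM versus Srsf2P95H and of 1.11 in Asxl1Tg versus WT. The 7 falls had medians of -1.19 and -1.14. These genes were selected on DM versus Srsf2P95H, which favours larger values there. The gap between the medians is thus no measure of a difference between the backgrounds. Serpinh1 rose by 5.36-fold with the Srsf2 mutation present and by 5.58-fold without it, Fkbp10 by 4.13-fold and 3.77-fold, and P3h4 by 2.57-fold and 2.59-fold. Chek2 had the same log2 fold change of -0.50 in both. The folds of the 3 called genes on the cilium list were smaller when the Srsf2 mutation was present, 7.82-fold against 20.8-fold for Evc, 6.62-fold against 14.5-fold for Evc2, and 7.31-fold against 18.7-fold for Dzip1l. For Evc the log2 effects differed by -1.41 (95% interval -2.23 to -0.60, unadjusted p = 0.00202, adjusted p = 0.378), and WT was at 1.77 CPM against 3.71 in Srsf2P95H. The differences of Evc2 and Dzip1l stood at unadjusted p = 0.0219 and 0.0525, and none of the 3 passed after adjustment. WT was at 2.45 CPM for Evc2 and 0.166 for Dzip1l, against 3.99 and 0.523 in Srsf2P95H. Dzip1l reached 3.10 CPM in Asxl1Tg and 3.83 in DM, so its smaller fold in DM went with a higher start and not a lower end. Evc reached 36.7 CPM in Asxl1Tg and 29.1 in DM, and Evc2 35.4 and 26.5. Outside the list, Anks6 (2.66-fold against 2.08-fold) and Kif19a (2.48-fold against 1.97-fold) had the larger fold with the mutation, at unadjusted p = 0.218 and 0.256 for the difference. Rab34 had the smaller one (2.71-fold against 3.15-fold, unadjusted p = 0.533). Over the whole cilium list the median difference of effects was 0.23. At an unadjusted p under 0.05, 8 members were positive and 3 negative (against 5.93% and 5.81% of all genes tested). In Asxl1Tg versus WT the list as a whole did not rise. Its median there was -0.15, with 21 members below 0 and 11 above. Of its members 5 were called higher and 2 lower there (against 1.12% and 0.76% of all genes tested).

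**Figure D4:**
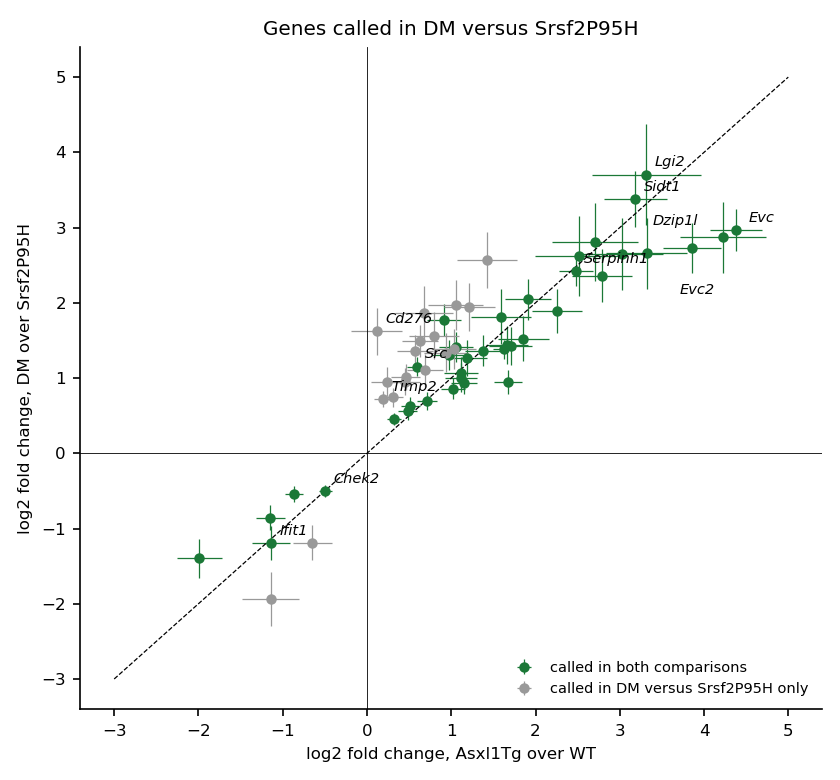
Log2 fold change of DM over Srsf2P95H (vertical axis) against that of Asxl1Tg over WT (horizontal axis) for the 56 genes called in the former, with SE bars on both axes. The dashed line marks equal effects, green points (38) are called in both comparisons, grey points (18) are not called in Asxl1Tg versus WT, and Cd276 sits nearest to 0 on the horizontal axis.

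For Cd276 the larger fold was on the Srsf2 mutant background. It rose by 3.08-fold where the Srsf2 mutation was present and stood at 6.17 CPM in WT and 6.68 in Asxl1Tg, a 1.08-fold difference. The log2 effects differed by 1.51 (95% interval 0.59 to 2.42, unadjusted p = 0.00293, adjusted p = 0.378). The DM level was thus near that of WT, and Srsf2P95H was the low group. Timp2 rose by 1.65-fold against 1.14-fold, a difference at unadjusted p = 0.00274. In the test of the difference between the transgene effects across all genes, edgeR called 0 genes, DESeq2 called 52, and 2670 genes (11.7%) lay at an unadjusted p under 0.05, 1349 with a positive difference (5.93%) and 1321 with a negative one (5.81%). Among the 56 called genes 14 did so, but the DM and Srsf2P95H values that selected them are part of this difference. Their share is thus not comparable with that of all genes. The smallest adjusted p was that of Serpina3g, a serine protease inhibitor of activated leukocytes (0.0851). It was at 43.7 to 53.5 CPM in WT, 69.7 to 86.3 in Asxl1Tg, 60.8 to 77.8 in Srsf2P95H and 50.2 to 60.4 in DM. The transgenic libraries thus lay above their controls on the normal background and below them on the Srsf2 mutant background, with no overlap in either comparison. The next smallest were those of Mc5r, a melanocortin receptor, Matn4, Rbm44 and Tmprss4. Mc5r was at 92.1 to 98.9 CPM in WT and 56.2 to 81.0 in Asxl1Tg, but at 76.8 to 95.2 in Srsf2P95H and 99.7 to 118.5 in DM (adjusted p = 0.245).

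Genes of MYC activity and ribosome biogenesis had small shifts of opposite sign on the mutant and normal backgrounds, none of which passed the test gene by gene. Of 26 tested genes on the list none was called, and all 26 had a log2 fold change below 0 in DM versus Srsf2P95H, with a median of -0.15. With edgeR 0 members were lower at an unadjusted p under 0.05. The mean log2 level of the list varied between libraries of a group with an SD of 0.16, about the size of the shift. Members of this list, as of every list, were measured in the same mice, so counts of members are not counts of independent results. The median shrank to -0.07 without Srsf2P95H 1, with 23 of 26 below 0, and to -0.09 without DM 3, with 24 below 0. In Asxl1Tg versus WT all 26 were above 0, with a median of 0.34. The difference of the effects was negative at an unadjusted p under 0.05 in 20 of the 26, against 5.81% of all genes tested, and no member passed after adjustment. Without single libraries or under the other settings this number was 16 to 25, and it was 16 without Srsf2P95H 4, DM 3, WT 4 or Asxl1Tg 4. Nop56, a box C/D small nucleolar ribonucleoprotein core gene, had a difference of -0.58 (unadjusted p = 0.00155), and Nolc1, a nucleolar chaperone, one of -0.75 (unadjusted p = 0.00363). Myc itself was at 469.3 ± 71.7 CPM in Srsf2P95H and 426.9 ± 106 in DM (adjusted p = 0.990). Genes of DNA replication had a median of -0.01 here, which was 0.06 without DM 3, and of 0.26 in Asxl1Tg versus WT. Those of the unfolded protein response had medians of -0.14 and 0.30, the former -0.02 without Srsf2P95H 1, and neither list held a call in either comparison.

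The other lists held few calls. Of 37 lists with 740 tested genes in all, 33 held no called gene, and 7 of the 740 were called (against 0.246% of all genes tested). The medians farthest from that of all genes, beside the immediate-early and interferon lists, belonged to markers of mature cells. Eosinophil genes had a median of -1.23 with 10 of 10 below 0, T and natural killer cell genes one of -0.72, and neutrophil genes one of -0.58. Erythroid genes had a median of 0.49 but were split, with 10 of 17 above 0 and a range of -1.96 to 1.20. At an unadjusted edgeR p under 0.05, 1 of them was higher and 3 lower. Over the alternative runs these 4 medians ran from -1.54 to -0.70, -0.84 to 0.18, -0.88 to -0.33 and 0.21 to 0.58. Targets of NF-kB and TNF had a median of -0.42 with 20 of 23 below 0, and of -0.00083 without Srsf2P95H 2. Stem-cell genes had a median of 0.22 (0.12 to 0.26 over the runs) with 20 of 28 above 0, and megakaryocyte genes one of 0.31 (0.21 to 0.47). None of these 7 lists held a call. Genes of lymphoid-primed progenitors had a median of -0.07, against -0.77 in Asxl1Tg versus WT. Polycomb genes (-0.03), genes of the Asxl family and Bap1 complex (median below 0.01 in size), SR proteins and hnRNPs (-0.06) and known targets of mutant SRSF2 (-0.02) held no call. Ccnd1, the G1 cyclin D1, came closest among the cell cycle genes, at 29.9 ± 4.87 CPM in Srsf2P95H and 49.3 ± 6.81 in DM without overlap (log2 fold change 0.72, adjusted p = 0.0503).

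**Figure D5:**
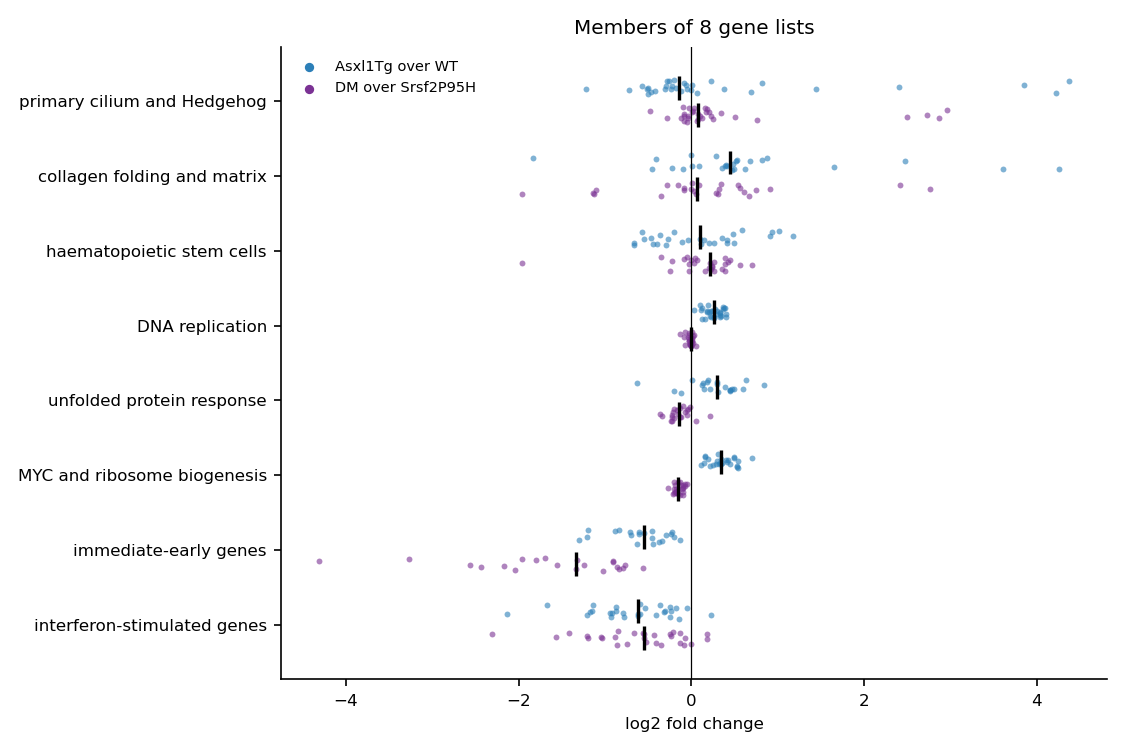
Log2 fold changes (horizontal axis) of the tested members of 8 gene lists, in Asxl1Tg over WT (blue) and DM over Srsf2P95H (purple), with the median of each as a black bar. The MYC and ribosome biogenesis members lie above 0 in blue and below 0 in purple, the interferon-stimulated members lie mostly below 0 in both, and 3 ciliary genes stand far to the right in both.

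The called genes were also placed along the genome. They were spread over 17 chromosomes, and 4 pairs lay within 100 kb of each other. These were Evc with Evc2, P3h4 with Fkbp10, Anks6 with Galnt12 (34.5 kb apart on chromosome 4) and Ulk1 with Chek2. Each pair moved in the same direction, and in all 4 pairs one gene is on the minus strand and the other on the plus strand. Galnt12, named after its values were seen and a glycosyltransferase that starts mucin-type sugar chains, rose by 1.62-fold (adjusted p = 0.0186) beside the 2.66-fold rise of Anks6, a call lost without Srsf2P95H 2, 3 or 4 or DM 1, 2 or 3.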

How the data were processed

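The table the authors deposited holds raw counts of 55291 gene symbols, 1 column per mouse, without normalization. Per the submitters' processing notes they used FastQC, Trimmomatic 0.38, STAR 2.7.0e, HTSeq 0.11.2 and mm10. The annotation release was not given, and the counting strand was not given, in the sources used here. Per the labels' protocols, the LSK cells were purified with beads and sequenced as paired ends. The design text gives 3 DM mice, the labels give 4 with 4 columns, and all were used. The Asxl1Tg columns have a shortened name and were assigned by elimination.

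Counts were fitted with edgeR 4.0.16 (R 4.3.3; filterByExpr with a minimum count of 10, TMM factors, robust quasi-likelihood fit) on all 16 libraries, with Benjamini-Hochberg adjustment over 22749 genes. A call is an adjusted p under 0.05. The difference of effects is (DM - Srsf2P95H) - (Asxl1Tg - WT). SE is on the log2 scale. Where replicate spread is given, it is the SD over 4 mice, and counting error is part of it. The method was tested on simulated data. Positions and biotypes are from GENCODE M21 (GRCm38), and the position of Macroh2a2 and the promoters are from RefSeq (GRCm38.p6). Fkbp10 and P3h4 have no promoter printed.

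The 37 gene lists and the genes compared were chosen with earlier results of these data known. Named are the 12 largest rises and up to 12 falls among called, non-overlapping genes at 2 CPM or more in either group without predicted or clone-named genes, the 8 most abundant called genes, up to 3 called genes per list and the 5 smallest p of the difference. Other genes were named after their values were seen, or are members of a list. Same-numbered DM and Srsf2P95H libraries correlated at -0.145 to -0.008 after subtraction of group means, and libraries of unlike number at -0.238 to 0.234. No pairing by replicate number was thus seen, but so few libraries cannot show that there was none. No libraries were duplicates. Alternatives were DESeq2 1.42.0, limma-voom (limma 3.58.1), other scaling, filters, a replicate block, an Xist covariate, fewer groups and leaving out each library.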

Additional observations from a re-analysis of the deposited data

Results flagged for a closer look

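Libraries that stood apart from the other 3 of their group, by the gap to the nearest divided by the range, were found in 6 of 82 groups of values examined, where chance flags about 1 in 20. Evc2 was at 4.95 CPM in Srsf2P95H 1, next to 3.76 in the nearest library, still far below the DM libraries. Ntn3 was at 3.46 CPM in DM 3, against 2.51 in the nearest. Asxl1 was at 234 CPM in Srsf2P95H 3, against 209.6 in the nearest. Among summed marker levels, mast cell and basophil genes were at 453.6 CPM in Srsf2P95H 1, against 243 in the nearest, and dendritic cell genes at 653.4 CPM in DM 1, against 785 in the nearest. Immediate-early genes summed to 14850 CPM in Srsf2P95H 2, against 4298 in the nearest.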

How the results depend on the processing

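All 56 called genes kept their sign in each of 28 alternative runs that tested them, which was likely beforehand because their groups did not overlap. The medians of 17 of the 37 gene lists changed sign in at least 1 run, 14 of them lists with a median under 0.1 in size. The other 3 were T and natural killer cell genes (-0.72, and 0.18 with the stricter filter), B lineage genes (-0.23, and 0.09 without Srsf2P95H 4) and monocyte genes (-0.25, and 0.16 without Srsf2P95H 3). The number called was 234 with DESeq2, 92 with limma-voom, 32 on 12 libraries without Asxl1Tg, and 26 without both WT 4 and Srsf2P95H 2, and it ran from 20 to 63 when 1 library was left out. The number called in both comparisons came to 144 by DESeq2, 59 by limma-voom, 59 when Xist was a covariate, 25 where the absolute log2 fold change had to reach 1, and 20 without both WT 4 and Srsf2P95H 2, and it ran from 14 to 43 when 1 library was left out. The number called in the difference of effects was 52 with DESeq2 and 1 with no filter, and it ran from 0 to 7 when 1 library was left out. The cause was not tested, except that a fold minimum leaves fewer calls by construction. With library size only 43 genes were called, 41 higher and 2 lower. The replicate block gave 62 calls, 42 in both comparisons and 0 in the difference, and kept 47 of the 56, although no pairing by number was seen. The fit without WT 4 and Srsf2P95H 2 was added after seeing the data. For Tmprss4 no value was obtained with the stricter filter. Genes under 1 CPM rest on few counts, which limits their folds.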
